A study of Mus musculus with 2 samples.

Results

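The collagen genes are the 44 protein-coding genes of the deposited table whose symbol has the form of a collagen alpha chain (Col, a type number, the letter a and a chain number), out of 22040 protein-coding genes and 53465 genes in all. The rule reads symbols and gene class only, so no measured value chose a member. Endothelial cells, which line blood vessels, were isolated from C57Bl/6 mice that carry tie2-cre, a Cre recombinase driven by the Tie2 promoter, and both groups share that genotype and strain. One group was treated with GFP, a fluorescent protein that serves as control, and the other with NeuroD1, a transcription factor of neuronal differentiation. Each group is 1 library made from 10000 cells out of a pool of 3 mice, with primers of DRUG-seq, a method that barcodes transcripts at the 3′ end. The Tie2 promoter is known to act in endothelial cells and also in blood cell lineages. The series title places the work in NeuroD1 gene therapy after ischemic stroke; vector, dose, age, time after treatment, vessel bed and whether these animals had a stroke are not in the labels.

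Collagens are extracellular proteins of 3 chains wound into a triple helix, in which glycine must recur at a fixed spacing of 3 residues. Type IV chains form the sheet-like network of the basement membrane on which endothelial cells sit, fibrillar chains build the fibres of connective tissue, and FACIT collagens (fibril-associated collagens with interrupted triple helices) lie along those fibres. Chains are hydroxylated and folded in the endoplasmic reticulum, trimmed and crosslinked outside the cell, and bound by integrins and other receptors. In the vessel wall, type IV collagen comes from endothelial cells and from the mural cells around them, and fibrillar collagen comes from fibroblasts among other cells.

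Levels are the deposited FPKM, reads per exon length on a scale that the authors set between the libraries and that is not that of the read totals (1 read is worth 1.13 times as much FPKM in NeuroD1 as in GFP). Whole reads recovered from the FPKM summed to 2061295 (GFP) and 2046291 (NeuroD1), and genes above 1000 FPKM took 51.1% and 56.2% of them. The median protein-coding gene held 24 and 21 reads. Neurod1 itself was at 0.664 FPKM (4 reads) with GFP and 182 FPKM (970 reads) with NeuroD1. Chemoreceptor genes, the 1499 protein-coding receptors for odours, pheromones and taste, which endothelial cells are not known to use, had a median of 1.54 FPKM in GFP and 1.41 FPKM in NeuroD1, and a 95th percentile of 4.40 and 4.78 FPKM. Those values serve as the background level of each library and are not its ceiling. Single chemoreceptor genes reached 49.2 FPKM in GFP and 61.8 FPKM in NeuroD1. In both libraries 49 of the 1499 passed the 95th percentile, so a gene above it is not thereby shown to be used by the cells. Of 13 endothelial markers 11 lay above that 95th percentile in both libraries, beside 19.8% of all protein-coding genes. The counts were 2 of 13 for mural, 2 of 11 for fibroblast, 1 of 8 for microglia and 0 of 8 for astrocyte markers. For the oligodendrocyte lineage 2 of 9 did.

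The collagen genes as a group sat at the level of a typical gene. Their median was 3.11 FPKM with GFP and 2.96 FPKM with NeuroD1, beside 3.10 and 2.98 FPKM over all protein-coding genes. Together they held 3965 and 3640 recovered reads, 0.192% and 0.178% of each library. Only Col16a1, Col5a1, Col19a1 and Col7a1, 4 of 44, reached 10 FPKM in both libraries. The first 3 of these made up 34.9% of summed collagen FPKM in GFP and 40.7% in NeuroD1. The lowest member was Col10a1, a chain of hypertrophic cartilage, at 0.434 and 0.819 FPKM, and no member was at 0.

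Set against the background level, 11 of 44 collagen genes (25%) lay above the chemoreceptor 95th percentile in both libraries, a share to be read beside 19.8% of all protein-coding genes. They were Col4a1 and Col4a2 of type IV, Col5a1, Col11a1, Col11a2 and Col1a1 of the fibrillar class, the FACIT genes Col16a1 and Col19a1, the transmembrane genes Col17a1 and Col23a1, and Col7a1. Another 6 members passed it in 1 library only, namely Col5a3, Col2a1, Col9a2 and Col13a1 in GFP and Col20a1 and Col15a1 in NeuroD1. The other 27 lay within the chemoreceptor range in both libraries, and Col4a6 and Col10a1 lay below the chemoreceptor median in both. For those 27 genes a level in FPKM was not distinguishable here from that of receptors the cells are not known to use. That reading depends on division by exon length, which lowers long genes where reads come from the 3′ end. Col12a1, among the 27, held 103 and 89 reads and ranked 8 by reads among the collagens in each library.

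**Figure D1:**
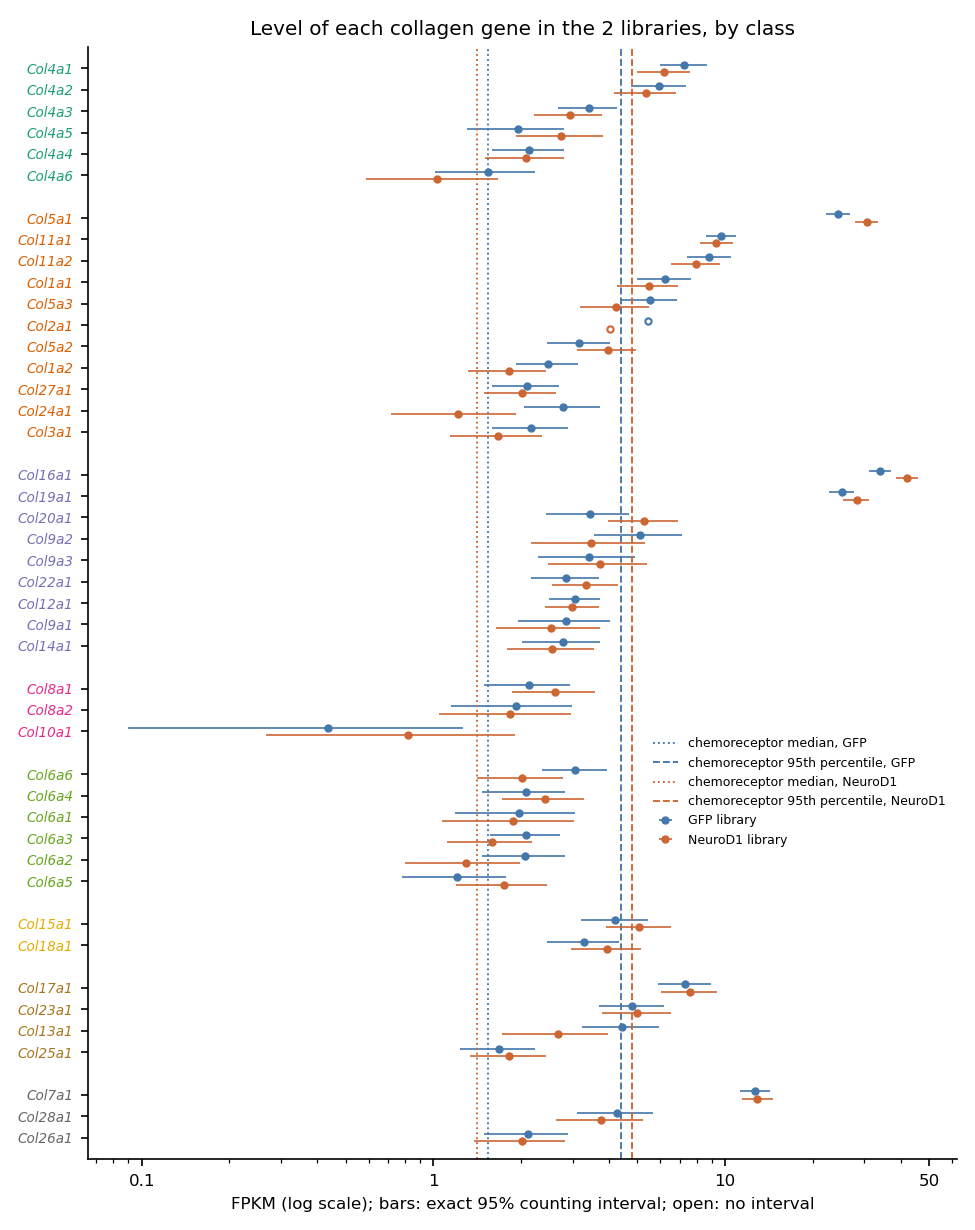
Level of each of the 44 collagen genes in FPKM (log axis) in the GFP library (blue) and the NeuroD1 library (orange), with genes in class order and label colours marking the class. Bars are exact 95% counting intervals, open points (Col2a1) have none, and vertical lines give the chemoreceptor median and 95th percentile of each library. Col16a1, Col5a1 and Col19a1 stand apart at 24.4 FPKM or more, and most other members lie near or within the chemoreceptor range.

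The question put to these libraries is how the collagen genes of endothelial cells differ after NeuroD1 and after GFP. No collagen gene was called 2-fold higher or lower in NeuroD1. A 2-fold call means a difference of at least 1 on the log2(FPKM + 1) scale, which understates the change of low genes, among genes with at least 5 FPKM in one library or both. Of 16 collagen genes past that minimum 0 were called in either direction, where the background was 3.25% of protein-coding genes higher and 3.31% lower. The largest difference among the 16 was 0.50, in Col20a1. Col24a1, under that minimum, had a difference of -0.78 and an FPKM ratio of 0.434. Over all members, 41 of 44 differed by no more than 0.5, but the same share over all protein-coding genes was not counted. Small differences were common among them. For protein-coding genes between 3 and 4 FPKM on average, the 25th to 75th percentile was -0.30 to 0.22. Their 5th to 95th percentile was -0.78 to 0.69. With 1 library a group there is no replicate check, no p-value is given, and the values compare these libraries rather than the conditions.

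A second reading used the reads. The NeuroD1 over GFP ratio of FPKM has an exact 95% interval from the read counts, which covers counting error only. Of 42 collagen genes with at least 20 reads over both libraries, the interval lay above 1 for 2 (4.76%), Col16a1 and Col5a1, where the background was 6.06% of protein-coding genes. It lay below 1 for 1 (2.38%), Col24a1, where the background was 6.37%. The other 39 intervals held 1. Both counts are near the background. These calls depend on the scaling between the libraries. Setting the same sum of FPKM lowers every NeuroD1 value by a factor of 0.849 and the protein-coding median difference to -0.20. There 0 intervals lay above 1 and 10 below, Col24a1 among them. With genes above 1000 FPKM left out of that sum, 3 lay above 1 and 1 below.

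More collagen genes were lower than higher in NeuroD1, by small amounts. Of the 43 members at 1 FPKM or more in one library or both, 17 lay above 0 and 26 below, and the median difference was -0.04. Over all 20697 such protein-coding genes, 10007 lay above 0 and 10688 below, with a median of -0.02. Without the 3 highest members, 14 lay above 0 and 26 below, with a median of -0.05, and summed FPKM had a ratio of 0.943, against 1.04 with them and 0.879 with them at the same sum of FPKM.

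Among all protein-coding genes the share above 0 rose with level, while the collagens followed no such order outside their highest genes. Between 1 and 2 FPKM on average, 2 of 8 collagen genes lay above 0 with a median of -0.15, beside 44.1% of 4263 protein-coding genes. Between 20 and 50 FPKM on average, 3 of 3 collagen genes lay above 0, with a median difference of 0.30. Of the 162 protein-coding genes in that range 85.2% lay above 0, with a median of 0.23. Between 5 and 10 FPKM, 1 of 6 collagen genes lay above 0 and their median was -0.13, while 53.9% of the 4103 protein-coding genes there lay above 0, with a median of 0.03. Col7a1, the 1 collagen gene between 10 and 20 FPKM, was at 0.02. Between 2 and 5 FPKM, 10 of 25 collagen genes lay above 0 with a median of -0.04, beside 46.8% above 0 and a median of -0.03 for 10774 protein-coding genes.

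**Figure D2:**
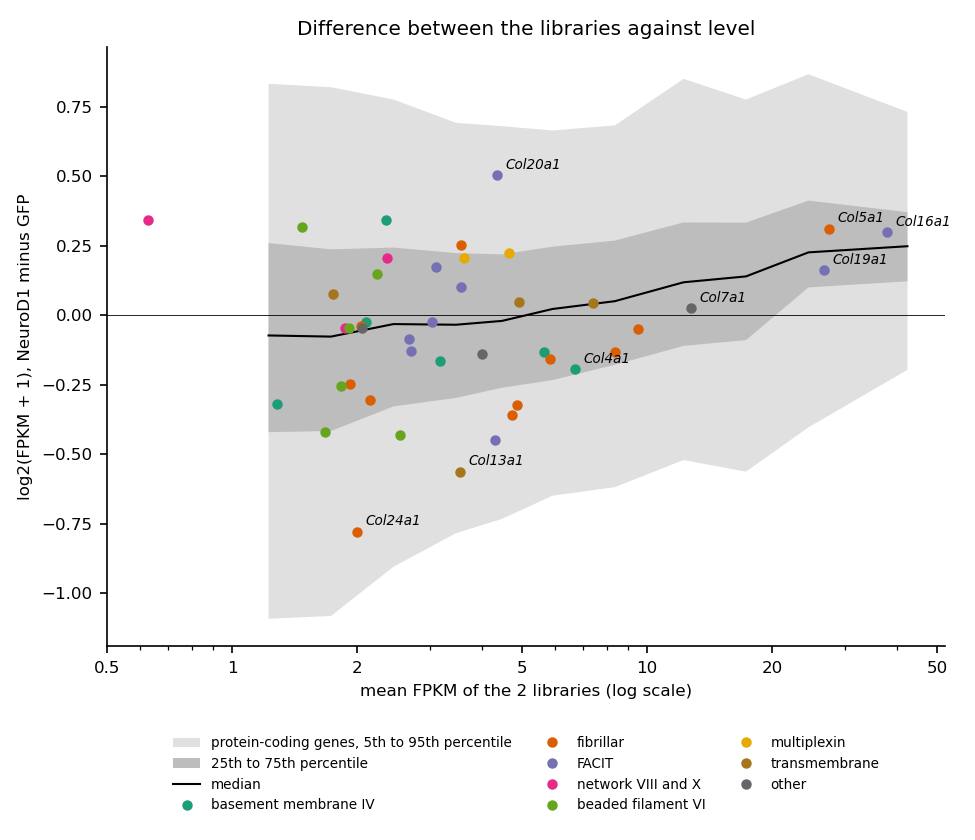
Difference of each collagen gene on the log2(FPKM + 1) scale, NeuroD1 minus GFP, against its mean FPKM over both libraries (log axis), coloured by class. The line is the median of protein-coding genes in bands of level and the shades their 25th to 75th and 5th to 95th percentiles. Col16a1, Col5a1 and Col19a1 lie at 0.30, 0.31 and 0.16, where the median line is also above 0 (Col19a1 falls to -0.07 at the same sum of FPKM), and Col24a1 is the lowest point at -0.78.

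**Figure D3:**
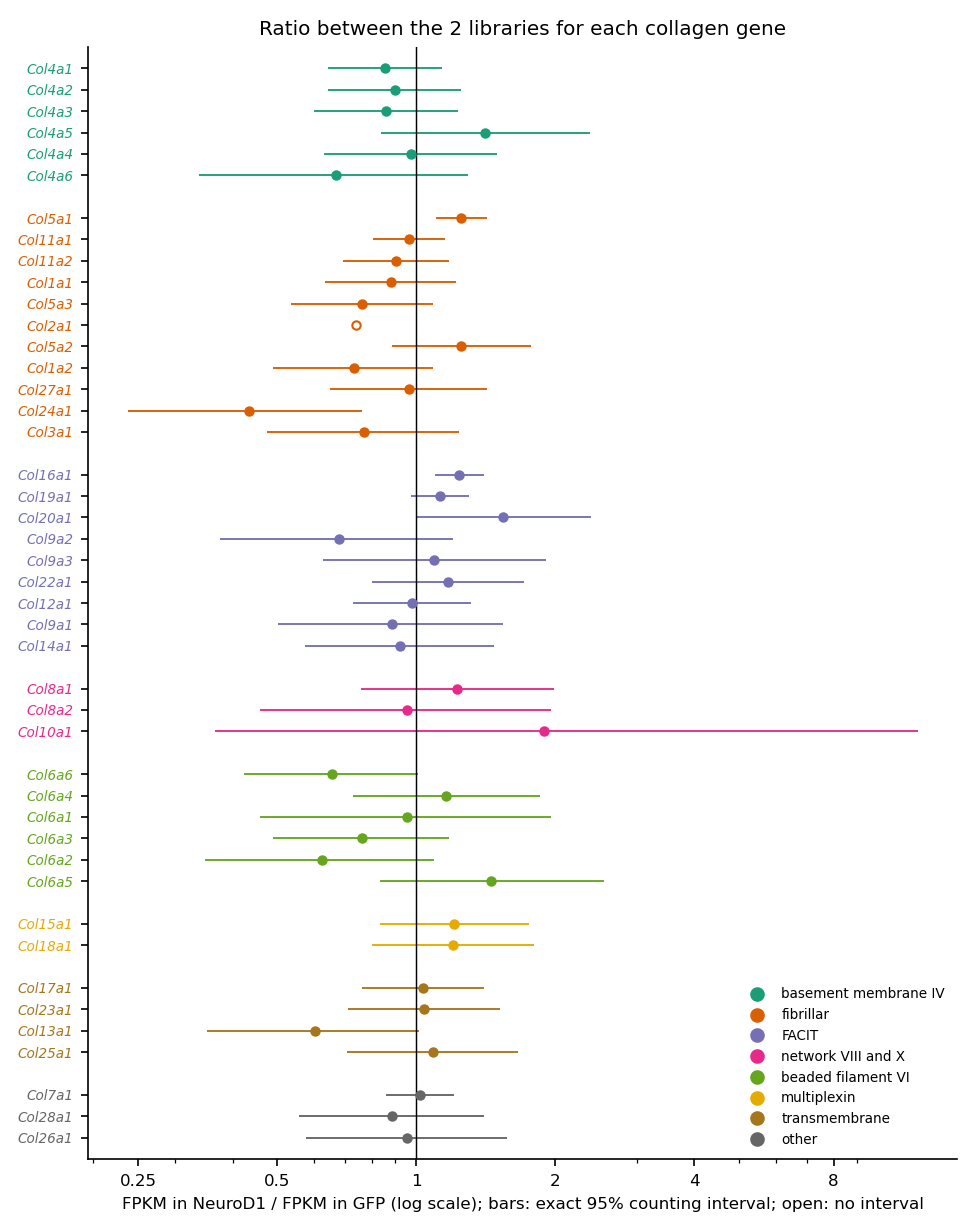
Ratio of FPKM, NeuroD1 over GFP (log axis), for each collagen gene, grouped by class. Bars are exact 95% counting intervals and the vertical line marks a ratio of 1. The bars of Col16a1 and Col5a1 lie right of the line, that of Col24a1 lies left of it, and the other bars cross it.

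Type IV collagen, the basement membrane class, was led in both libraries by Col4a1 and Col4a2, the chains of the network common to most basement membranes. Col4a1 (ENSMUSG00000031502, GRCm38 chromosome 8, 11198423 to 11312826, minus strand) was read at 7.22 FPKM in GFP (119 reads) and 6.18 FPKM in NeuroD1 (90 reads). Its ratio was 0.857 (95% interval 0.644 to 1.14). Col4a2 (ENSMUSG00000031503, chromosome 8, 11312805 to 11449287, plus strand) stood at 5.95 FPKM (87 reads) and 5.35 FPKM (69 reads), a ratio of 0.898 (0.645 to 1.25). Both were lower in NeuroD1 by less than their counting error. Col4a1 was 4.68 and 4.40 times the chemoreceptor median, at the 91.0 and 86.0 percentile of protein-coding genes, and ranked 8 among the collagens in each library.

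The other type IV chains, which form the networks of particular basement membranes such as that of the kidney filter, were low. Col4a3 stood at 3.41 and 2.93 FPKM, a ratio of 0.861 (0.599 to 1.23), and Col4a4 at 2.13 and 2.08 FPKM, a ratio of 0.974 (0.633 to 1.49). Col4a5 was the 1 type IV gene higher in NeuroD1, at 1.95 and 2.75 FPKM, a ratio of 1.41 (0.838 to 2.38). Col4a6 stood at 1.53 and 1.03 FPKM, a ratio of 0.671 (0.338 to 1.29), below the chemoreceptor median in both libraries. In the class, 1 of 6 genes lay above 0 and 5 below, with a median of -0.15. The 6 genes summed to 22.2 FPKM in GFP and 20.3 FPKM in NeuroD1, and their summed reads (387 and 311) gave a ratio of 0.910 (0.781 to 1.06) that held 1.

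The type IV genes lie in head-to-head pairs, the members of a pair being transcribed away from each other. The start region is shown because Col4a1 and Col4a2 were the highest type IV genes in both libraries and share it. In GENCODE M21 their first exons overlap by 22 bases at chr8:11312805-11312826, plus strand, so a read there belongs to both genes unless strand is used. The sources used here do not say how strand was treated. Capitals mark a GC box, a motif bound by Sp1-type factors.
Col4a1 and Col4a2 overlap: agtgcgcGGGCGGcgtctccaa
The starts of Col4a3 and Col4a4 are 71 bases apart on chromosome 1, from 82586850 to 82586920, and none of the motifs searched lies in that gap. Those of Col4a5 and Col4a6 are 1308 bases apart on the X chromosome. The levels of the partners were set against each other. Col4a1 over Col4a2 was 1.21 (0.912 to 1.62) in GFP and 1.16 (0.836 to 1.61) in NeuroD1. Col4a3 over Col4a4 was 1.597 (1.10 to 2.33) and 1.41 (0.933 to 2.15). Col4a5 over Col4a6 was 1.27 (0.728 to 2.24) in GFP and 2.67 (1.44 to 5.15) in NeuroD1, with overlapping intervals. Col4a3, Col4a4, Col4a5 and Col4a6 lie within the chemoreceptor range in both libraries, and Col4a6 held 27 and 16 reads.

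The length of the coding repeat sets the fibrillar class apart from the others. The longest unbroken run of triplets of codons that start with a glycine codon (any codon beginning with GG) was counted in each gene. Among the 11 fibrillar genes that run held 216 to 344 triplets, in no more than 3 blocks of repeat per gene. Among the 6 type IV genes it held 39 to 66 triplets, and the repeat was broken into 22 to 27 blocks that still covered 74.9% to 78.8% of codons. Run length did not single out type IV, since FACIT (32 to 113), network (60 to 61), type VI (37 to 87) and transmembrane genes (40 to 56) overlapped it. The stretches below give 21 codons each from GENCODE M21 transcripts, all of them coding exons on the sense strand, with glycine codons in capitals. Col1a1 shows the unbroken spacing of a fibrillar chain, and the 2 type IV stretches run over the point where the spacing breaks.
Col1a1: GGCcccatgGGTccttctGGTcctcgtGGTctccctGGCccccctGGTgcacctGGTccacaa
Col4a1: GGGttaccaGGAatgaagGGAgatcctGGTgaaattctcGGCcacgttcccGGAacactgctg
Col4a2: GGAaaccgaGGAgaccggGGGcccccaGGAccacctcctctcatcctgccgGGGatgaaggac

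The highest fibrillar gene was Col5a1, the main chain of type V collagen, which sits in the core of collagen fibres. Col5a1 (ENSMUSG00000026837, chromosome 2, 27886425 to 28039514, plus strand) stood at 24.4 FPKM in GFP (458 reads) and 30.6 FPKM in NeuroD1 (506 reads). It was 15.8 and 21.7 times the chemoreceptor median, at the 99.3 and 99.4 percentile. The ratio was 1.25, with an interval (1.10 to 1.42) that leaves out 1. Exons of the noncoding genes 2810430I11Rik (99 bases) and Gm13372 (113 bases) on the other strand cover 1.17% and 1.33% of its exon length. The start of the longest run is shown because Col5a1 was the highest fibrillar gene, and it does not mark those shared bases. The last capital codon is a glycine inside a triplet.
Col5a1: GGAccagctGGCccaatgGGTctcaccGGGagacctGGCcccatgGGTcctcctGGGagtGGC
The 2 genes of its partner chains did not share its level. Col5a2 stood at 3.16 and 3.96 FPKM, a ratio of 1.25 (0.887 to 1.77), and Col5a3 at 5.52 and 4.22 FPKM, a ratio of 0.764 (0.535 to 1.09). Type V trimers hold Col5a1 and Col5a2 chains together. Col5a1 over Col5a2 was 7.72 in both libraries (5.97 to 10.1 in GFP and 6.04 to 9.997 in NeuroD1). Col5a2 lies within the chemoreceptor range in FPKM, so these are ratios to a low level. Its counting intervals, 2.45 to 4.02 FPKM in GFP and 3.11 to 4.97 FPKM in NeuroD1, lie above the chemoreceptor median. Col5a1 over Col5a3 was 4.43 (3.50 to 5.66) in GFP and 7.25 (5.49 to 9.73) in NeuroD1, where Col5a3 too lay within the chemoreceptor range.

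The chains of the common fibres were lower. Col1a1, a chain of type I collagen of skin, bone and vessel wall, stood at 6.21 FPKM (90 reads) in GFP and 5.47 FPKM (70 reads) in NeuroD1, a ratio of 0.881 (0.635 to 1.22). Its partner Col1a2 stood at 2.48 and 1.82 FPKM, a ratio of 0.733 (0.490 to 1.09). Col3a1, which forms the fine fibres of vessels and soft organs, stood at 2.17 and 1.67 FPKM, a ratio of 0.771 (0.476 to 1.23), within the chemoreceptor range. All 3 were lower in NeuroD1 and all 3 intervals held 1. In FPKM, Col1a1 over Col1a2 was 2.51 (1.81 to 3.49) in GFP and 3.01 (2.04 to 4.50) in NeuroD1. The reads stood closer, at 90 against 68 and 70 against 44, since FPKM divides by 6563 bases for Col1a1 and 12426 for Col1a2, and Col1a2 too lies within the chemoreceptor range.

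The type XI genes Col11a1 and Col11a2, known for cartilage, were among the higher collagens. Col11a1 stood at 9.70 FPKM (273 reads) and 9.33 FPKM (232 reads), a ratio of 0.963 (0.804 to 1.15). Col11a2 stood at 8.81 and 7.96 FPKM, a ratio of 0.903 (0.693 to 1.17). They ranked 5 and 6 among the collagens in both libraries. Col2a1, the cartilage type II chain, stood at 5.43 and 4.02 FPKM, a ratio of 0.739. No exon length near the annotated one gave whole reads for Col2a1, so it has no interval. A length of 6001 bases would give 72 and 47 reads (0.501 to 1.08) and its double, 12002 bases, 144 and 94 reads (0.564 to 0.965).

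Col24a1, a fibrillar chain with a short helix that is known from developing bone, was the 1 collagen gene with an interval below 1. It stood at 2.79 FPKM (47 reads) in GFP and 1.21 FPKM (18 reads) in NeuroD1, a ratio of 0.434 (0.237 to 0.761) and a difference of -0.78. Both levels lie within the chemoreceptor range, and at the chemoreceptor median a gene of this length would hold 26.0 reads in GFP and 20.9 in NeuroD1. Its longest run is 216 triplets and that of Col27a1, its nearest relative, 217, against 337 or more in the other 9 fibrillar genes. The stretch is shown because this gene had the lowest ratio.
Col24a1: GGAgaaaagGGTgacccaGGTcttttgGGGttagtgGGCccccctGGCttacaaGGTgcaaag
Over the class, 2 of 11 fibrillar genes lay above 0, Col5a1 and Col5a2, and 9 below, with a median of -0.16. Summed FPKM were 72.8 in GFP and 72.2 in NeuroD1, a ratio of 0.992. Without Col5a1 the ratio was 0.861.

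The FACIT class held the highest collagen gene of both libraries, Col16a1, a minor chain found at the edge of fibres and basement membranes. Col16a1 (ENSMUSG00000040690, chromosome 4, 130047840 to 130099283, plus strand) stood at 33.9 FPKM in GFP (506 reads) and 42.0 FPKM in NeuroD1 (553 reads), at the 99.6 percentile in each. The ratio was 1.24, and its interval (1.10 to 1.40) leaves out 1. Col19a1 (ENSMUSG00000026141, chromosome 1, 24261890 to 24587472, minus strand), a chain known in muscle and in some neurons, stood at 25.1 FPKM (382 reads) and 28.2 FPKM (379 reads). Its ratio of 1.12 had an interval (0.972 to 1.30) that held 1, and its difference turned from 0.16 to -0.07 at the same sum of FPKM. Neither shares exon bases with another annotated gene. Their coding repeats are broken like those of type IV, with longest runs of 52 and 57 triplets, in 21 and 11 blocks. The starts of those runs are shown as the FACIT genes with the highest levels.
Col16a1: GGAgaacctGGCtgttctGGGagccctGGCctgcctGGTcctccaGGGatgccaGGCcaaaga
Col19a1: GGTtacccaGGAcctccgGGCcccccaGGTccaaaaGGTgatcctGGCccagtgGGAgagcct

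The other FACIT genes were far lower. Col20a1 stood at 3.43 FPKM (39 reads) and 5.29 FPKM (53 reads), a ratio of 1.54 (0.999 to 2.39) whose lower bound touched 1. Col9a2, 1 of 3 chains of the cartilage collagen type IX, stood at 5.12 and 3.48 FPKM, a ratio of 0.680 (0.376 to 1.20). Col9a1 and Col9a3 stood between 2.53 and 3.73 FPKM over both libraries. Col12a1, the longest collagen gene by exon length (15228 bases) and a chain of tendon and ligament fibres, stood at 3.06 and 2.997 FPKM, a ratio of 0.979 (0.729 to 1.31). Of 9 FACIT genes 5 lay above 0 and 4 below, with a median of 0.10 that became -0.08 at the same sum of FPKM. Summed FPKM were 82.6 in GFP and 94.1 in NeuroD1, a ratio of 1.14, and summed reads gave 1.15 (1.06 to 1.24), while at the same sum of FPKM the FPKM ratio was 0.968. Without Col16a1 and Col19a1 the FPKM ratio was 1.02.

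Type VI collagen, which forms beaded filaments around cells and is known largely from fibroblasts and mural cells, was low throughout. Its highest gene by mean, Col6a6, stood at 3.06 and 2.01 FPKM, a ratio of 0.658 (0.424 to 1.01). The chains of the common trimer stood at 1.96 and 1.87 FPKM (Col6a1), 2.07 and 1.29 FPKM (Col6a2) and 2.08 and 1.59 FPKM (Col6a3). All 6 genes lay within the chemoreceptor range in both libraries. In the class 2 of 6 lay above 0 and 4 below, with a median of -0.15, and summed reads gave a ratio of 0.866 (0.710 to 1.05).

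The multiplexins, collagens of basement membrane zones that release antiangiogenic fragments, were both higher in NeuroD1. Col15a1 stood at 4.21 FPKM (59 reads) and 5.09 FPKM (63 reads), a ratio of 1.21 (0.834 to 1.76). Col18a1, whose C-terminal fragment is endostatin, stood at 3.29 FPKM (51 reads) and 3.94 FPKM (54 reads), a ratio of 1.20 (0.803 to 1.79). Their summed reads gave 1.20 (0.921 to 1.58), and all of these intervals held 1. Multiplexins are also made by endothelial cells, and Col15a1 passed the chemoreceptor 95th percentile in the NeuroD1 library only.

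Among transmembrane collagens, which stay anchored in the cell surface, Col17a1, known from the hemidesmosomes of skin, was the highest at 7.30 and 7.56 FPKM, a ratio of 1.04 (0.762 to 1.40). Col23a1 stood at 4.81 and 5.01 FPKM, a ratio of 1.04 (0.710 to 1.52). Col13a1, known from the neuromuscular junction, stood at 4.42 FPKM (45 reads) and 2.67 FPKM (24 reads), a ratio of 0.604 (0.352 to 1.01) whose upper bound lay just above 1. In the class 3 of 4 lay above 0, with a median of 0.05 that became -0.15 at the same sum of FPKM, and a mean of -0.10. Of the short-chain network collagens Col8a1, a collagen of the vessel wall and cornea, stood at 2.13 and 2.61 FPKM, a ratio of 1.23 (0.760 to 1.99), and Col8a2 at 1.92 and 1.83 FPKM. Col7a1, the anchoring fibril collagen of skin, ranked 4 among all collagens at 12.7 FPKM (288 reads) and 12.9 FPKM (259 reads), a ratio of 1.02 (0.858 to 1.21). Col28a1 and Col26a1 stood between 2.01 and 4.25 FPKM.

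**Figure D4:**
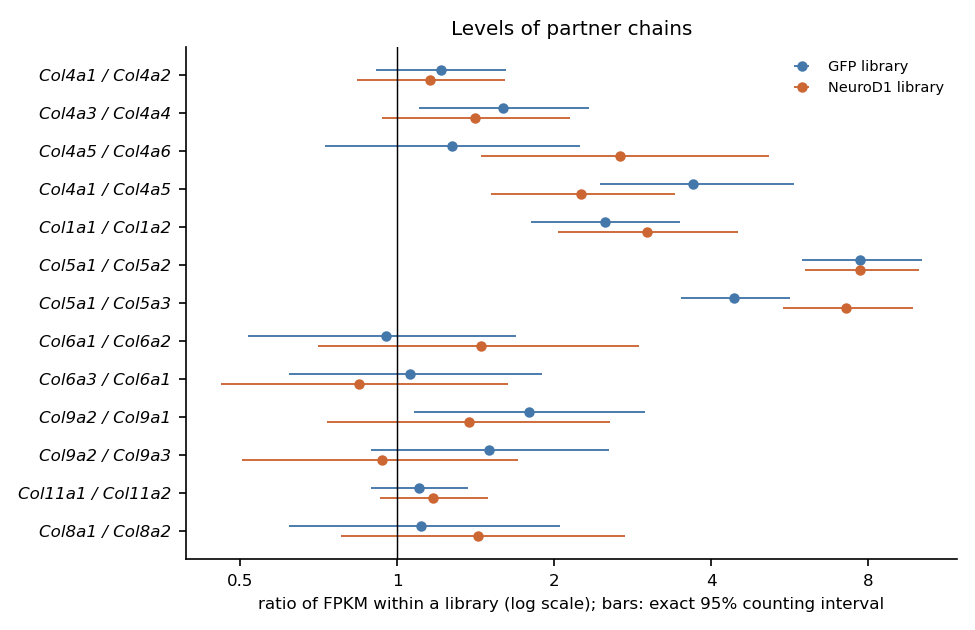
Ratio of FPKM between chains that pair in a trimer or share a type (log axis), in the GFP library (blue) and the NeuroD1 library (orange), with exact 95% counting intervals and a line at equal levels. Some chains, such as Col5a2 and Col1a2, lie within the FPKM range of chemoreceptor genes in both libraries. Col5a1 over Col5a2 is 7.72 in both libraries, Col1a1 over Col1a2 is 2.51 and 3.01, and Col4a1 over Col4a2 lies close to the line.

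Length bears on these levels, since collagen transcripts are long and FPKM divides by length. The median member had 7542.5 bases of merged exon, against 3487 bases for protein-coding genes, and a median of 48 exons. A method that reads the 3′ end gives about 1 position per transcript whatever its length, so division by length lowers long genes, and where in the genes these reads lie was not analysed here. Across the 43 members with recovered reads, longer genes held more reads, with a Spearman rho of 0.38 in GFP and 0.33 in NeuroD1. Length and FPKM had a rho of -0.18 in each. These are descriptions over genes that share a library. Between the libraries, the order of the 43 genes had a rho of 0.91. By reads as by FPKM, Col16a1, Col5a1 and Col19a1 were the first 3 in both libraries.

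Exon overlap with other annotated genes was small. Of the 44 members, 31 shared no exon base with another gene, and 13 shared some, none of them 10% of its length. Apart from Col4a1 and Col4a2, the members that shared bases with a protein-coding gene on the other strand were Col9a3, with 234 bases of Tcfl5, and Col10a1, with 18 bases of Nt5dc1.

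Promoter windows were searched for E-boxes, the motif class that NeuroD1 is known to bind, and for core promoter motifs. RefSeq windows of GRCm38.p6 (300 bases, mostly upstream of a start) were matched for 35 of 44 members, in 38 windows, and compared with all 32851 windows, on both strands. CAGATG lay in 4 collagen windows (10.5%, against 17.2% of all windows), those of Col3a1, Col4a5, Col6a6 and Col9a1. CAGCTG lay in 7 (18.4% against 16.3%), those of Col11a2, Col16a1, Col17a1, Col24a1, Col5a3, Col6a5 and Col9a2. GGGCGG, the GC box, lay in 23 windows (60.5% against 35.7%), CCAAT in 13 (34.2% against 37.4%) and TATAAA in 5 (13.2% against 13.6%). No motif searched contains another, and a match describes letters in a window, not binding. The members with no window were Col1a1, Col2a1, Col4a3, Col5a2, Col9a3, Col12a1, Col14a1, Col22a1 and Col26a1.

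Genes that make, cut, crosslink or bind collagen were read the same way, from 4 lists. Only 12 modifying enzymes and chaperones, 3 processing and crosslinking genes, 5 receptors and 6 basement membrane partners passed the 5 FPKM minimum. Of these 0 were 2-fold higher or lower, where the background was 3.25% of protein-coding genes higher and 3.31% lower. Of 21 measured modifying enzymes and chaperones, which hydroxylate and fold the chains, 8 lay above 0 and 13 below, with a median of -0.09. The highest were P3h1, a prolyl 3-hydroxylase, at 16.7 and 16.3 FPKM, and P4ha3, a prolyl 4-hydroxylase subunit, at 8.09 and 7.03 FPKM. No interval in that list left out 1. Of 14 processing and crosslinking genes, 6 lay above 0 and 8 below, with a median of -0.16, and 2 had an interval above 1, where the background was 6.06%. These were Pcolce, which enhances the cutting of procollagen ends, at 4.14 and 7.24 FPKM (ratio 1.75, 1.12 to 2.76), and Loxl2, a lysyl oxidase that crosslinks type IV collagen, at 3.02 and 5.03 FPKM (ratio 1.67, 1.07 to 2.62). Loxl3, another lysyl oxidase, was the other of the highest at 5.11 and 5.46 FPKM. At the same sum of FPKM 0 of the 14 intervals lay above 1 and 2 below.

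Of 12 collagen receptors 6 lay above 0 and 6 below, with a median of 0.01 and a mean of -0.07. Itgb1, the beta chain of all collagen-binding integrins, stood at 6.43 and 7.16 FPKM, and Adgrg1, an adhesion receptor for type III collagen, at 5.26 and 6.81 FPKM. Oscar, a collagen receptor of osteoclasts and myeloid cells, had an interval below 1, at 7.35 and 3.61 FPKM (ratio 0.491, 0.235 to 0.970), 1 of 12 where the background was 6.37%. Of 10 basement membrane partners of type IV collagen, 6 lay above 0 and 4 below, with a median of 0.13. Sparc, a collagen-binding matrix protein, stood at 13.9 and 15.2 FPKM, and Lamb2, a laminin chain, at 7.67 and 6.49 FPKM. Lamb1, the other beta laminin of vessels, had an interval above 1, at 2.10 and 3.31 FPKM (ratio 1.58, 1.06 to 2.35). Nid2, which links laminin to type IV collagen, at 6.12 and 3.77 FPKM (ratio 0.615, 0.403 to 0.925), and Lama5, at 5.45 and 4.01 FPKM (ratio 0.736, 0.557 to 0.968), had intervals below 1. Against a background of 6.06% above and 6.37% below, these are 1 and 2 of 10 genes, and at the same sum of FPKM 0 lay above and 4 below.

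Markers of other cells that make collagen were read the same way, and some had intervals that left out 1. In a pool of cells, fewer cells of a type and less RNA per cell cannot be told apart. Mural markers summed to 42.2 FPKM in GFP and 36.5 FPKM in NeuroD1, with 3 of 12 measured above 0 and a median of -0.25. Acta2 stood at 7.63 and 10.9 FPKM and Myh11 at 5.73 and 4.87 FPKM. Kcnj8 at 3.38 and 0.604 FPKM and Des at 3.38 and 1.64 FPKM had intervals below 1. These are 2 of 9 mural markers with at least 20 reads, where the background was 6.37%, and both lie within the chemoreceptor range. Fibroblast markers summed to 34.4 and 48.6 FPKM, with 5 of 9 measured above 0 and a median of 0.12. Ptgds was 2-fold higher, at 3.57 and 10.6 FPKM, 1 of 3 fibroblast markers at 5 FPKM, where the background was 3.25%. Ptgds, Fbln1 (8.29 and 12.2 FPKM), Mfap5 (7.69 and 11.0 FPKM) and Slc6a13 (0.779 and 3.002 FPKM) had intervals above 1. Ptgds and Slc6a13 kept theirs at the same sum of FPKM. These are 4 of 8 fibroblast markers with at least 20 reads, where the background was 6.06%. Slc6a13 lies within the chemoreceptor range in both libraries. Of the other fibroblast markers Dcn stood at 3.26 and 3.07 FPKM, Lum at 1.29 and 1.05 FPKM and Dpt at 0.525 and 0.297 FPKM, within the chemoreceptor range. No marker of either list was at 0 in both libraries.

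Beside these, the fibrillar genes typical of fibroblasts (Col1a1, Col1a2 and Col3a1) had ratios of 0.881, 0.733 and 0.771, and type VI collagen summed to 12.4 FPKM in GFP and 10.9 FPKM in NeuroD1. Endothelial markers summed to 200.7 and 221.9 FPKM, with 8 of 13 above 0 and a median of 0.16. Ly6c1 stood at 48.6 and 60.8 FPKM and Cldn5, which seals endothelial junctions, at 33.9 and 31.5 FPKM. Ly6c1, Slco1a4 (15.1 and 19.4 FPKM) and Erg (12.1 and 16.9 FPKM) had intervals above 1, 3 of 13 where the background was 6.06%. At the same sum of FPKM none of the 13 did, and 3 lay below. The median difference was -0.02 over 8 astrocyte markers (mean 0.006), -0.18 over 8 microglia markers and 0.04 over 8 measured markers of the oligodendrocyte lineage. Among the highest of these were Gfap (5.15 and 3.40 FPKM) and Gja1 (4.02 and 3.65 FPKM), Aif1 of microglia (6.501 and 6.36 FPKM), and Cnp (8.09 and 7.61 FPKM) and Mog (5.31 and 6.02 FPKM). Slc1a2 of astrocytes (0.724 and 2.34 FPKM) had an interval above 1, and Aldh1l1 of astrocytes (3.31 and 1.25 FPKM) had one below 1. Each is 1 of 7 astrocyte markers with at least 20 reads, beside a background of 6.06% above and 6.37% below. Both genes lie within the chemoreceptor range. The part of any of these cell types in the collagen values was not tested.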

How the data were processed

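The authors deposited 1 table of FPKM values, with 1 column for each of 2 libraries. Per the submitters' processing notes the GRCm38 build, featureCounts 1.6.3, Bowtie2 2.3.5.1 and DESeq were used. The sources used here do not give the handling of strand, multi-mapping reads and molecular identifiers. The deposited FPKM times merged exon length (GENCODE M21) fell on whole multiples of 1 step per library for 51161 of 53465 genes (95.7%, within 0.02 reads), and a length within 10% of the annotated one was solved for 1126 more. The steps have a ratio of 1.13 while read totals are nearly equal, so the deposited FPKM were taken as already scaled between the libraries and were not rescaled. Reads were recovered for 43 of 44 collagen genes, 3 of them (Col11a2, Col17a1 and Col8a1) at a solved length.

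Each difference is NeuroD1 minus GFP on the log2(FPKM + 1) scale. A gene counted as measured at 1 FPKM, entered 2-fold counts at 5 FPKM in one library or both, and had an exact Clopper-Pearson 95% interval counted from 20 reads. Since the reads may be copies of fewer molecules, the intervals hold counting error alone. The steps were tested on simulated data. Classes were type IV, fibrillar, FACIT, network, type VI, multiplexin, transmembrane and other.

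The members follow from the symbol rule. The other lists were chosen with earlier results of these data known. The text names all type IV genes, other members at 5 FPKM, members past a threshold and the highest of each class. Of each other list it names the 2 highest genes and up to 4 past a threshold. One marker that this rule takes is not reported here. Other genes were named after their values were seen. Alternatives were other pseudocounts, minimums and scalings. Tools were scipy 1.17.1, numpy 2.4.6, matplotlib 3.10.9 and pandas 2.3.3 under Python 3.11.15.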

Additional observations from a re-analysis of the deposited data

How the results depend on the processing

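No paired analysis was possible because there is a single library of each treatment. The count of collagen genes called 2-fold higher or lower was 0 under every alternative run. Col24a1 shows the limit of that count. With no minimum and the main pseudocount it was counted, at a difference of -0.78. Its difference was -1.14 with a pseudocount of 0.1 and -1.17 with the chemoreceptor median subtracted, where the 5 FPKM minimum left it out. No run joined either of those settings with no minimum. With both libraries set to the same sum of FPKM, which multiplies NeuroD1 by 0.849 and moves the protein-coding median from -0.02 to -0.20, 0 collagen genes had an interval above 1 and 10 had one below (Col11a1, Col11a2, Col13a1, Col1a2, Col24a1, Col4a1, Col5a3, Col6a2, Col6a3 and Col6a6). Median differences became -0.20 for all collagens, -0.33 for type IV, -0.35 for fibrillar, -0.29 for type VI, -0.082 for FACIT, -0.15 for transmembrane, -0.076 for network, 0.025 for multiplexin and -0.20 for other collagens. Ratios of summed FPKM became 0.879 for all, 0.777 for type IV, 0.842 for fibrillar, 0.968 for FACIT and 0.834 for other collagens. The differences of Col5a1, Col16a1 and Col19a1 became 0.08, 0.07 and -0.07. That shift is the scaling's own construction. With genes above 1000 FPKM left out of the same scaling, or with median-of-ratios size factors, Col20a1 joined Col16a1 and Col5a1 above 1. The FACIT median was -0.02 without Col16a1 and Col19a1.

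Counting only members at 20 FPKM left Col16a1, Col5a1 and Col19a1, with a median of 0.30 for all and 0.31 for fibrillar. With the chemoreceptor median subtracted, medians were 0.48 for network, -0.65 for type VI, 0.36 for multiplexin and 0.082 for transmembrane collagens. The multiplexin median was 0.26 and 0.12 with pseudocounts of 0.1 and 5, and 0.23 after subtracting the median of like protein-coding genes. The intervals of other lists at the same sum of FPKM were also chosen after seeing the data. Chosen likewise, leaving out Col16a1, Col5a1 and Col19a1 gave summed ratios of 0.943 for all, 0.861 for fibrillar and 1.02 for FACIT, and the larger read pair of Col2a1 made 2 intervals below 1. Of 132 differences of 22 named members under 6 alternatives, 129 moved by no more than the counting error of the gene itself. That error is wide for genes with few reads, so the tally says little of them. Col24a1, at -0.33 with a pseudocount of 5 against -0.78, is among the 129. The 3 that moved were Col5a1, Col16a1 and Col19a1 at the same sum of FPKM. Depth limits the low members, since the median collagen gene held 51 and 44 reads.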
